A study of Homo sapiens with 12 samples.

Results

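The proto-oncogene MYC and its dimerisation network were followed across 12 RNA sequencing libraries of hepatocellular carcinoma (HCC) cell lines. The 8 genes MYC, MAX, MXI1, MXD4, MNT, MGA, MLX and MLXIP were taken by name, and all 8 were among the 11548 genes analysed. The libraries came from the HCC lines Hep3B, MHCC97H and Huh7, all labelled wild type, each left untreated or treated with AZD8055, with compound #57 or with both. AZD8055, an inhibitor of the mTOR kinase, was given at 100 nM, and compound #57, an inhibitor of the phosphatase SHP2, was given at 5 µM in the combination. The dose of compound #57 given alone is not given in the sources used here. Exposure lasted 24 h in MHCC97H and 48 h in the other lines, so that line and time cannot be told apart. Each line and treatment had 1 library, and the lines served as the replicates of a treatment.

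The libraries held 10667343 to 15968317 reads. Liver markers set MHCC97H apart from the other lines. Albumin (ALB) had 203 to 834 reads per library in MHCC97H, whereas Hep3B held 146259 to 628730 and Huh7 28743 to 103682. Transthyretin (TTR) had 0 to 3 reads in MHCC97H, apolipoprotein APOA1 had 4 to 10 and the oncofetal marker GPC3 had 3 to 6, so that several defining markers of hepatocytes and HCC were at or near 0 in a line labelled HCC. The liver factor HNF4A (775 to 2041 reads) and the epithelial keratin KRT8 (43735 to 60890 reads) were present there. Markers of other cells also differed. The endothelial marker PECAM1 had 371 to 617 reads in MHCC97H, 7 to 27 in Hep3B and 5 to 89 in Huh7. The mesenchymal marker VIM had 63 to 116, 5295 to 28885 and 5180 to 13775 in the same order. The fibroblast markers COL1A1 (147 to 1069) and COL1A2 (732 to 1528) were highest in Huh7. Changes are therefore given by line, and calls over the lines also without MHCC97H where that alters them. The part of line identity in them was not tested.

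MYC is a short-lived transcription factor that binds DNA only as a dimer with MAX, mostly at the E-box sequence CACGTG, and drives genes of ribosome synthesis, metabolism and growth. MAX also pairs with MXI1, MXD4 and MNT, which bring corepressors to the same sequences, and with MGA, which joins a variant polycomb complex. MLX is the partner of the glucose-sensing factors MLXIP (MondoA) and MLXIPL (ChREBP) and can also pair with MNT and MXD4. MYC transcription lies downstream of ERK signalling, to which SHP2 contributes, and MYC overexpression is a known driver of liver cancer.

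Per length, MYC was the most abundant or the second most abundant of the 8 transcripts in each line. Its median over the 4 treatments stood at 55.8 RPKM (reads scaled to transcript length and library total) in MHCC97H, 38.2 in Hep3B and 16.0 in Huh7. MLX ranked second in Hep3B (35.1) and MHCC97H (29.5) and first in Huh7 (17.8), and MXI1 ranked last in Hep3B (4.23) and Huh7 (4.83). The 3 highest transcripts of Huh7, MLX, MYC and MXD4 (15.9), had medians closer together than the range of each over the 4 treatments. In MHCC97H the lowest MYC value (47.5) lay above the highest MLX value (34.8), whereas in Hep3B their ranges overlapped. MAX itself, the partner shared by MYC, the MXD proteins, MNT and MGA, had median RPKM values of 19.9 for MHCC97H, 11.6 for Hep3B and 9.78 for Huh7. In bulk libraries a change in the cells present and a change in RNA per cell cannot be told apart.

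MYC mRNA was lower with compound #57 in Hep3B and Huh7, and did not differ from the untreated library in MHCC97H beyond counting error. In Hep3B cells, MYC had 1713 normalised reads (reads scaled to a library of 10000000) when untreated, 2129 with AZD8055, 532 with compound #57 and 1128 with the combination. The Huh7 libraries held 817, 728, 303 and 466 in the same order. The MHCC97H libraries held 2076, 2305, 2075 and 1766. The lowest MHCC97H value thus lay above all 4 Huh7 values and above all Hep3B values but that with AZD8055.

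Within a line, with 1 library a condition, MYC had a log2-fold change of -1.68 with compound #57 in Hep3B (95% counting interval -1.81 to -1.57) and of -1.43 in Huh7 (-1.59 to -1.27). The change in MHCC97H was 0.00 to 2 decimals, with an interval of -0.08 to 0.08, and -0.11 when libraries were centred on their medians. MYC was the 1 member of 8 at least 2-fold lower with compound #57 in Hep3B, where 3.75% of all genes were, and in Huh7, where 1.52% were. MXI1 in Hep3B lay just inside that limit at -0.98, and past it after centring (-1.03). These intervals cover counting error only and say nothing of the spread between cultures.

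AZD8055 alone left MYC between 0.891-fold and 1.24-fold of untreated. The log2-fold change was 0.31 for Hep3B cells (0.23 to 0.40) and 0.15 for MHCC97H cells (0.08 to 0.22), but -0.17 for Huh7 cells (-0.29 to -0.04). In the combination, MYC was higher than with compound #57 alone in Hep3B (2.12-fold) and Huh7 (1.54-fold) and lower in MHCC97H (0.851-fold). Relative to untreated cells the combination left MYC lower, at -0.81 for Huh7, -0.60 for Hep3B and -0.23 for MHCC97H.

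Across lines, the log2 values of all 11548 genes were fitted in limma with treatment and cell line as terms, and a gene was called at a Benjamini-Hochberg adjusted p under 0.05. In the 6 libraries with compound #57 against the 6 without, MYC was the 1 member of 8 called, lower at -0.84 on the log2 scale (SE 0.21, limma adjusted p = 0.0362). In this contrast 10.3% of all genes were called and 3.34% were called lower (799 higher and 386 lower, or 587 and 680 after centring). Without Huh7 the adjusted p of MYC was 0.270 and without Hep3B 0.287, while without MHCC97H the change was -1.17 with an adjusted p of 0.00629. MYC was lower with compound #57 beyond counting error in 5 of 6 matched pairs, all but the MHCC97H pair without AZD8055.

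Against untreated cells alone, with 3 libraries a side, MYC stood at -1.04 with compound #57 (SE 0.30, limma adjusted p = 0.117), which did not pass. The call appeared without MHCC97H (-1.56, limma adjusted p = 0.0187). In that contrast 0 of 8 members were called by limma (2 at an unadjusted p under 0.05) and 0 by voom on the recovered reads, where 0.00866% of all genes were called by limma. The compound #57 effect on MYC within each line, taken over both pairs of libraries, stood at -1.30 for Hep3B, -1.03 for Huh7 and -0.19 for MHCC97H (SE 0.23 each). The test of a difference between lines gave a limma adjusted p of 0.139 for MYC, and 0 of 8 members passed it (3 at an unadjusted p under 0.05, 0 by voom), against 4.9% of all genes.

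Among the members, the MAX partners that bring corepressors, MXI1, MXD4 and MNT, were all higher with AZD8055 in MHCC97H. This did not hold for MXD1, an MXD protein outside the members. Its log2-fold change there with AZD8055 against untreated was -0.56 (95% counting interval -0.73 to -0.40). MXD3, also outside the members, stood at 0.13 (-0.41 to 0.69). MXI1 had 104 normalised reads in untreated MHCC97H cells, 291 with AZD8055, 129 with compound #57 and 383 with the combination. MXD4 had 146, 418, 241 and 460, and MNT had 380, 806, 389 and 680. Both MHCC97H libraries with AZD8055 were above both without it for each of these 3 genes.

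In the other lines these genes did not share a direction. The Hep3B libraries held 197, 164, 99.2 and 130 normalised reads for MXI1, in the same order. The Huh7 libraries held 154, 181, 130 and 218. MXI1 in Hep3B was thus highest in untreated cells, and in Huh7 the libraries with AZD8055 were above those without. For MXD4 the values were 1110, 810, 1301 and 951 in Hep3B and 549, 487, 725 and 685 in Huh7. For MNT they were 447, 530, 568 and 578 in Hep3B and 289, 372, 267 and 341 in Huh7. MXD4 was lower with AZD8055 than in the matched library in both of these lines, whereas MNT was higher in both. Between the libraries with compound #57, 2 of these changes lay within counting error. They were the log2-fold changes of MXD4 in Huh7 (-0.08, -0.22 to 0.06) and of MNT in Hep3B (0.03, -0.12 to 0.17).

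In MHCC97H the log2-fold change with AZD8055 against untreated was 1.47 for MXI1 (95% counting interval 1.20 to 1.77), 1.51 for MXD4 (1.28 to 1.76) and 1.08 for MNT (0.93 to 1.24). These were 3 of the 8 members at least 2-fold higher, where 7.14% of all genes were. With the combination, 2 of 8 members (MXI1 at 1.87 and MXD4 at 1.65) were at least 2-fold higher in MHCC97H, where 11.4% of all genes were, and MNT stood at 0.84. In Hep3B and Huh7 none of the 8 members was at least 2-fold higher or lower with AZD8055 or the combination against untreated.

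The AZD8055 effect, taken over both pairs of libraries of a line, differed between the lines for 2 of the 8 members, MXD4 and MXI1, where 5.03% of all genes passed this limma F test. For MXD4 it was 1.22 in MHCC97H, against -0.45 in Hep3B and -0.13 in Huh7 (SE 0.15 each, limma adjusted p = 0.0175). For MXI1 it was 1.52 in MHCC97H, against 0.06 and 0.49 (SE 0.20 each, limma adjusted p = 0.0487). MNT, at 0.94 against 0.13 and 0.36, did not pass (SE 0.12 each, limma adjusted p = 0.0609).

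**Figure D1:**
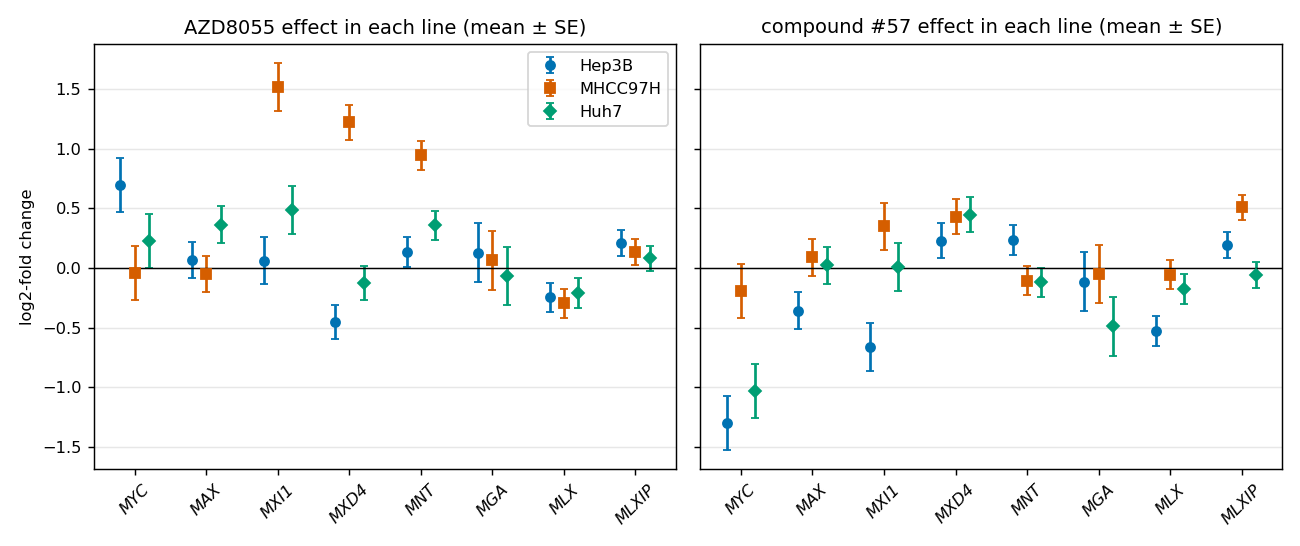
Effect of AZD8055 (left) and of compound #57 (right) on each member in each line, as the mean log2-fold change of 2 matched pairs of libraries with its SE from limma. MXI1, MXD4 and MNT stand at 1.52, 1.22 and 0.94 with AZD8055 in MHCC97H, above their values in the other lines, and MYC stands at -1.30 and -1.03 with compound #57 in Hep3B and Huh7 and at -0.19 in MHCC97H.

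Over all lines, with 6 libraries with AZD8055 against 6 without, MNT was the 1 member of 8 called, higher by 0.48 (SE 0.14, limma adjusted p = 0.0321), where 27% of all genes were called and 14.8% called higher. MNT was higher beyond counting error in 5 of 6 matched pairs, and in the pair of Hep3B libraries with compound #57 the log2-fold change was 0.03 (-0.12 to 0.17). The call was lost without Huh7 (0.54, limma adjusted p = 0.173) and without MHCC97H (0.25, limma adjusted p = 0.196). MXI1 stood at 0.69 (SE 0.25, limma adjusted p = 0.0694), at 0.27 without MHCC97H, and passed without Hep3B (limma adjusted p = 0.0409). Against untreated cells alone, AZD8055 gave 0 of 8 members called by limma (2 at an unadjusted p under 0.05, 0 by voom), where 2.96% of all genes were called (255 higher and 87 lower, or 256 and 217 after centring), and MNT stood at 0.56 (SE 0.20, limma adjusted p = 0.109).

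Levels of MXI1, MXD4 and MNT, each centred within its line, correlated with one another over the 12 libraries, with Pearson's r of 0.65 for MXI1 and MXD4, 0.71 for MXI1 and MNT and 0.65 for MXD4 and MNT. These values rest on the 4 MHCC97H libraries. Over the 8 libraries of Hep3B and Huh7, a choice made after seeing the data, r was -0.36 for MXI1 and MXD4, -0.02 for MXI1 and MNT and -0.32 for MXD4 and MNT. All are descriptions of libraries that share lines and treatments. Over the 12 libraries MYC had an r of 0.31 with MXI1, -0.41 with MXD4 and -0.02 with MNT.

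The promoter sequences of these 3 genes are shown because these genes were higher together in MHCC97H and because MYC and its antagonists bind the E-box. Each is the 250 bases before the annotated start of the main transcript, from RefSeq on GRCh38.p14, 5′ to 3′ on the gene's strand, with any CACGTG in capitals. MXD4 (chr4:2262110-2262359, minus strand) and MNT (chr17:2401061-2401310, minus strand) held 1 each, beginning 238 and 193 bases before the start. MXI1 (chr10:110207355-110207604, plus strand) held none in this window, and its other 2 annotated starts held none either.
MXD4: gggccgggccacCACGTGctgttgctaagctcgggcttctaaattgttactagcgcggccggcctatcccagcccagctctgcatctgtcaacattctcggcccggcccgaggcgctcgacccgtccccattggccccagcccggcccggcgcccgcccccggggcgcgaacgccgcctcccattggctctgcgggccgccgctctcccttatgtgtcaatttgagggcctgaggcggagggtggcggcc
MNT: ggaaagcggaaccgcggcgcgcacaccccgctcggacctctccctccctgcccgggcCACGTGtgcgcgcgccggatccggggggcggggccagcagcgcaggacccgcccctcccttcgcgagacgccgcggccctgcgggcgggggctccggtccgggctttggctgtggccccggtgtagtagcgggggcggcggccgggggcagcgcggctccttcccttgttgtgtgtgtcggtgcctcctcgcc
MXI1: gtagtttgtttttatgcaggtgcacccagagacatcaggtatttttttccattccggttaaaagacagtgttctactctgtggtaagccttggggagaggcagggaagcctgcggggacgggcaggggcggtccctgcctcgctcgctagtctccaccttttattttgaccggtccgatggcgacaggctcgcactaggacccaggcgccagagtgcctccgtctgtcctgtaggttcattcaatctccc

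Among 35116 promoter windows of the same length, 6.34% held CACGTG, which reads the same on both strands. The 7 members whose promoters were searched had 12 such windows, of which 3 held it (1 each for MXD4, MNT and MLX). A match describes these letters and is not evidence of binding.

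The balance between MYC and the members that compete with it for MAX differed accordingly. MXD1, MXD3 and MYCN, analysed but not among the members, were left out of this balance. In MHCC97H with the combination against untreated, the log2-fold change was -0.81 for MXD1 and 0.78 for MXD3. MXD1 had 560 normalised reads in untreated MHCC97H, more than MNT (380), MXD4 (146) or MXI1 (104). With the combination it had 319, fewer than each of them (680, 460 and 383). The shares below would therefore differ with MXD1 counted. MYC mRNA made up 46.7% of the summed mRNA of MYC, MXI1, MXD4, MNT and MGA in RPKM in untreated Hep3B, 76.1% in MHCC97H and 38.7% in Huh7. With compound #57 it made up 20.5%, 71.8% and 17.9%, and with AZD8055 55.8%, 60.8% and 33.9%. The combination gave 38.1%, 54.4% and 24.9%. The share was lowest with compound #57 in Hep3B and Huh7, where MYC was lower, and lowest with the combination in MHCC97H, where MXI1, MXD4 and MNT together went from 19.8% to 42.1%. Shares of mRNA do not give shares of protein, and there is 1 library behind each.

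MAX and MGA showed no common direction. MAX ranged from 164 to 242 normalised reads in Huh7 and from 183 to 269 in Hep3B, whereas MHCC97H held 379 to 418. MAX was not called in any treatment contrast, and its mean change with AZD8055, over 6 libraries a side, was 0.13 (SE 0.12, limma adjusted p = 0.440). MAX overlaps FNTB on the opposite strand (39 to 100 reads per library, against 223 to 540 for MAX), and whether reads were counted by strand is not given in the sources used here.

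MGA, the giant MAX partner of the polycomb complex, had 1116, 1081, 914 and 1126 normalised reads in Hep3B, for untreated cells, AZD8055, compound #57 and the combination. It had 367, 535, 494 and 370 in MHCC97H and 1247, 1556, 1160 and 847 in Huh7. In MHCC97H and Huh7 the combination lay below AZD8055 alone, by log2-fold changes of -0.53 (-0.70 to -0.36) and -0.88 (-0.99 to -0.76), whereas in Hep3B the change was 0.06 (-0.05 to 0.17). Over the lines MGA stood at -0.45 in the combination against AZD8055 (SE 0.18, limma adjusted p = 0.310), which did not pass. In that contrast 0 of 8 members were called by limma (1 at an unadjusted p under 0.05, 0 by voom) and 0% of all genes. MYC stood at -0.65 in it (SE 0.30, limma adjusted p = 0.354).

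MLX was lower with the combination than in untreated cells in all 3 lines. MLX had 1080, 908, 747 and 631 normalised reads in Hep3B, for untreated cells, AZD8055, compound #57 and the combination. It had 821, 636, 751 and 644 in MHCC97H and 544, 413, 423 and 416 in Huh7. In each line the untreated library was the highest of the 4. The log2-fold change of the combination against untreated was -0.77 for Hep3B (-0.91 to -0.64), -0.39 for Huh7 (-0.55 to -0.22) and -0.35 for MHCC97H (-0.49 to -0.22).

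Over the lines MLX was the 1 member of 8 called with the combination against untreated, lower by -0.50 (SE 0.13, limma adjusted p = 0.0181). In this contrast 36% of all genes were called and 15.1% called lower (2410 higher and 1744 lower, or 1993 and 2229 after centring). The call was lost without Huh7 (-0.56, limma adjusted p = 0.119) and without Hep3B (-0.37, limma adjusted p = 0.117) and held without MHCC97H (-0.58, limma adjusted p = 0.0326). It was also lost when only the 6 libraries compared were fitted (limma adjusted p = 0.0741). AZD8055 alone gave -0.34 (SE 0.13, limma adjusted p = 0.140) and compound #57 alone gave -0.34 (SE 0.13, limma adjusted p = 0.186). MLX overlaps PSMC3IP on the opposite strand, which had 98 to 352 reads per library against 484 to 1168 for MLX.

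The promoter of MLX (chr17:42566850-42567099, plus strand, RefSeq, GRCh38.p14) is shown as the third member with an E-box, which begins 50 bases before the start (capitals).
MLX: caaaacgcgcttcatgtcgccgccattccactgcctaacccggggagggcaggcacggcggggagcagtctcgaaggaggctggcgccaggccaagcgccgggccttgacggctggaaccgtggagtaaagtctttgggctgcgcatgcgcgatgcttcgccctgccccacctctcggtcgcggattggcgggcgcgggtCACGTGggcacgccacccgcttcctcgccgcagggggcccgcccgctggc

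MLXIP, the glucose-sensing partner of MLX, was most abundant in MHCC97H, where its lowest library lay above every library of the other lines. MLXIP ranged from 1834 to 2859 normalised reads in MHCC97H, from 594 to 785 in Hep3B and from 564 to 626 in Huh7. In MHCC97H its log2-fold change against untreated was 0.58 with compound #57 alone (95% counting interval 0.50 to 0.66) and 0.64 with the combination (0.57 to 0.72). After centring on the library medians these were 0.47 and 0.54. Over the lines its change with the combination was 0.35 (SE 0.14, limma adjusted p = 0.0777), which did not pass, and 0.21 without MHCC97H (limma adjusted p = 0.302).

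The remaining contrasts called no member. The combination against compound #57 gave 0 of 8 members by limma (1 at an unadjusted p under 0.05, 0 by voom), where 4.18% of all genes were called, with MXI1 at 0.90 (SE 0.36, limma adjusted p = 0.157) and MYC at 0.49 (SE 0.30, limma adjusted p = 0.326). The test of whether the combination departed from the sum of both single drugs gave 0 of 8 members by limma (0 at an unadjusted p under 0.05, 0 by voom) and 0% of all genes, with MYC at 0.39 (SE 0.42).

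The 8 genes also differed between lines. MHCC97H against Huh7 gave 7 of 8 members called (5 higher, 2 lower), where 70.2% of all genes were called. MHCC97H against Hep3B gave 5 of 8 (3 higher, 2 lower), where 67.8% were. Hep3B against Huh7 gave 3 of 8, all higher in Hep3B, where 55.1% were. With so many genes called, these counts say little about the members in particular. In these line contrasts the 4 differently treated libraries of a line stood as its replicates. Their p-values therefore do not measure the spread between cultures of a line. For MHCC97H, line and exposure time cannot be told apart.

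MLXIP had the highest excess in MHCC97H, at log2-fold changes of 2.01 against Huh7 and 1.82 against Hep3B (SE 0.12 each, limma adjusted p = 2.99e-07 and 7.49e-07). MYC was higher in MHCC97H than in Huh7 by 1.92 (SE 0.26, limma adjusted p = 7.88e-05) and than in Hep3B by 0.75 (SE 0.26, limma adjusted p = 0.0246). The latter call was lost without the libraries with compound #57 (0.35, limma adjusted p = 0.0718), without the combination (0.78, limma adjusted p = 0.0692) and when only the 8 libraries of both lines were fitted (limma adjusted p = 0.0653). MAX was higher in MHCC97H by 1.01 against Huh7 and 0.81 against Hep3B (SE 0.14 each, limma adjusted p = 0.000120 and 0.000587), with no overlap between the lines. Both MGA and MXD4, competitors of MYC for MAX, were lower in MHCC97H, with MGA at -1.43 and -1.28 (SE 0.16 each, limma adjusted p = 2.22e-05 and 5.75e-05) and MXD4 at -1.07 and -1.84 (SE 0.30 each, limma adjusted p = 0.00932 and 0.000383). The MXD4 call against Huh7 was lost without the libraries with compound #57 (-0.90, limma adjusted p = 0.0604). MNT, also a competitor of MYC for MAX, went the other way against Huh7, higher in MHCC97H by 0.76 (SE 0.17, limma adjusted p = 0.00262). Against Hep3B it was not called (0.01, SE 0.17, limma adjusted p = 0.945). MXI1 was called in none of the 3 line contrasts (limma adjusted p = 0.210, 0.522 and 0.559).

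Of the other genes of the network, MYCN, MXD1, MXD3 and MLXIPL were analysed, and MYCL was not analysed here. MYCN, the neuronal paralogue of MYC, was called lower with compound #57 (-1.51, SE 0.37, limma adjusted p = 0.0354). The Hep3B libraries held 263, 65, 43 and 13 reads, the Huh7 libraries 355, 166, 119 and 98 and the MHCC97H libraries 9, 4, 2 and 3, for untreated cells, AZD8055, compound #57 and the combination. The untreated library held the most reads in each line, and the MHCC97H values are too few to compare. The MYCN call was lost without Huh7 (-1.76, limma adjusted p = 0.201) and without Hep3B (-0.93, limma adjusted p = 0.216). With the combination against untreated, MYCN was called lower (-2.34, SE 0.53, limma adjusted p = 0.00988; without Huh7 0.0820), and MLXIPL, the liver glucose sensor that pairs with MLX, was called higher (1.78, SE 0.53, limma adjusted p = 0.0274). MLXIPL had 736 reads in untreated Hep3B and 930 with the combination, 54 and 217 in MHCC97H and 101 and 661 in Huh7, and its call was lost without Huh7 (limma adjusted p = 0.216) and without MHCC97H (limma adjusted p = 0.0821). MXD3, another repressive MAX partner, was called higher with compound #57 (0.47, SE 0.13, limma adjusted p = 0.0455) and lost the call without Huh7 and without Hep3B (limma adjusted p = 0.271 and 0.273).

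Many known MYC targets fell with each drug. Of 22 listed, 21 were analysed here (all but CCND2). Of the 21, 20 had negative mean changes over the lines in each of 3 contrasts, AZD8055 (6 libraries a side), compound #57 (6 a side) and the combination against untreated. The exception was CDKN1A, which MYC is known to repress. With AZD8055 the lines did not agree for every target. The effect in Hep3B, MHCC97H and Huh7 was 0.12, -1.27 and 0.34 for ODC1, and 0.04, -0.50 and 0.03 for FBL. It was 0.01, -0.38 and 0.23 for NPM1, whereas LDHA was lower in each line (-0.85, -0.94 and -1.61). With AZD8055, 11 were called lower (median of the 21, -0.45, against 0.03 for all genes), where 12.2% of all genes were called lower. With compound #57, 13 were called lower (median -0.56, against 0.04), where 3.34% were. With the combination against untreated, 17 were called lower (median -1.06, against 0.09), where 15.1% were. With 3 libraries a side, AZD8055 against untreated gave 1 of the 21 called, LDHA (median -0.56). Compound #57 against untreated gave 0 of 21 (median -0.65), and the combination against AZD8055 gave 0 of 21 (median -0.53). Of all genes, 2.96%, 0.00866% and 0% were called in these contrasts.

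MYC itself was not called in the AZD8055 contrast or with the combination against untreated (-0.55, SE 0.30, limma adjusted p = 0.167), so that the targets were called in contrasts in which MYC mRNA was not. Lactate dehydrogenase LDHA was the target with the largest change with AZD8055 (-1.14, SE 0.17, limma adjusted p = 0.00382) and with the combination (-1.90, SE 0.24, limma adjusted p = 0.00211). The transferrin receptor TFRC stood at -0.83 with AZD8055 (SE 0.14, limma adjusted p = 0.00493), ahead of SRM (-0.68) and the nucleolar protein NOP56 (-0.63). The ribosome assembly factor BOP1 had the largest change with compound #57 (-1.0, SE 0.18, limma adjusted p = 0.0173) and the spermidine synthase SRM the next (-0.87, SE 0.13, limma adjusted p = 0.0149), followed by the ribosome biogenesis genes PPAN (-0.82) and NOP16 (-0.80). With the combination LDHA was followed by SRM (-1.55), BOP1 (-1.5) and NOP16 (-1.42). LDHA had 5929, 3183, 2672 and 1529 normalised reads in Hep3B, 9962, 4898, 7817 and 4314 in MHCC97H and 8544, 2542, 4110 and 1472 in Huh7, for untreated cells, AZD8055, compound #57 and the combination. The combination library was the lowest in each line.

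Without Huh7 the counts of 11, 13 and 17 targets called fell to 0, and without Hep3B the count with compound #57 fell from 13 to 0. Without MHCC97H the count with AZD8055 fell from 11 to 3 and that with compound #57 was 16. The counts called over all genes fell likewise without Huh7, from 3115 to 1 with AZD8055 and from 1185 to 0 with compound #57. Without Huh7, 0 of the 26 gene results recomputed for the listed genes outside the 8 members kept their call.

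**Figure D2:**
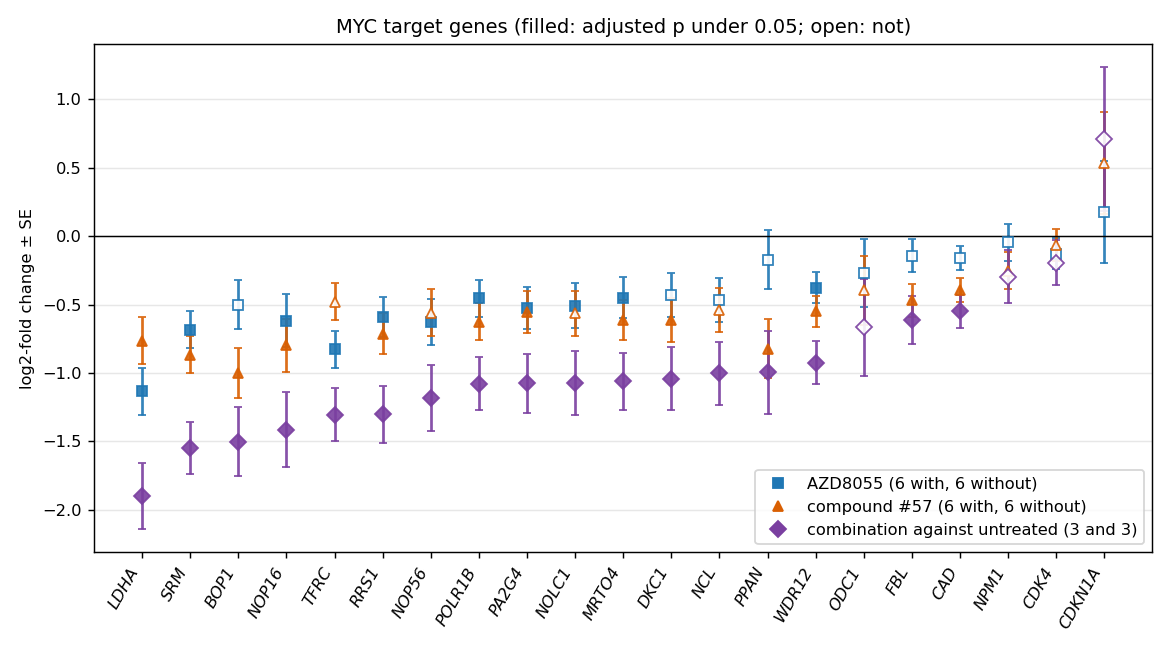
Log2-fold change of the 21 MYC targets with AZD8055, with compound #57 and with the combination against untreated (means over the lines with SE from limma; filled symbols have an adjusted p under 0.05). LDHA is lowest with the combination at -1.90 and CDKN1A is the one gene above 0 in all 3.

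Cofactors and regulators of MYC stability gave 17 of 18 analysed genes (CIP2A was not analysed here). With AZD8055, 4 were called lower and 1 higher, led by SKP2, a ubiquitin ligase subunit that acts on MYC (-1.10, SE 0.10, limma adjusted p = 0.00146), and AURKA, a kinase that stabilises MYCN (-0.70, SE 0.11, limma adjusted p = 0.00491). These 5 of 17 were 29.4%, near the 27% of all genes called in that contrast. USP28 (-0.29) and WDR5 (-0.25) were the other 2 called lower, and the acetyltransferase KAT5 was called higher (0.25). The median of the 17 was -0.18, against 0.03 for all genes. With compound #57, 2 were called lower, the paired ATPases RUVBL1 (-0.53, SE 0.14, limma adjusted p = 0.0385) and RUVBL2 (-0.43, SE 0.11, limma adjusted p = 0.0348), with a median of -0.07 against 0.04, where 11.8% of the list and 10.3% of all genes were called. With the combination against untreated, 4 were called lower, AURKA (-1.09), SKP2, RUVBL1 (-0.80) and RUVBL2 (-0.67), or 23.5% of the list where 36% of all genes were called.

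The corepressors of the MXD proteins and MNT were called about as often as all genes. Of 8, 2 were called lower with AZD8055, SAP30 (-0.54, SE 0.12, limma adjusted p = 0.0127) and RBBP7 (-0.31, SE 0.07, limma adjusted p = 0.0134), and 1 with compound #57, the histone deacetylase HDAC1 (-0.40, SE 0.07, limma adjusted p = 0.0172). These were 25.0% and 12.5% of the list, where 27% and 10.3% of all genes were called. The medians of the 8 were -0.04 and 0.00, against 0.03 and 0.04 for all genes. With the combination against untreated, 3 were called lower, SAP30 (-0.54), HDAC1 (-0.49) and RBBP7 (-0.29), or 37.5% of the list against 36% of all genes. Of the 12 genes of the complex that MGA joins, TFDP1 (-0.77, SE 0.12, limma adjusted p = 0.00407) and L3MBTL2 (-0.45, SE 0.11, limma adjusted p = 0.0188) were called lower and RYBP higher (0.27, SE 0.08, limma adjusted p = 0.0325) with AZD8055, with a median of -0.11. These were 25.0% of the list, where 27% of all genes were called. With the combination against untreated, 3 were called higher and 4 lower, or 58.3% of the list against 36% of all genes, led by TFDP1 (-0.98), TFDP2 (0.96), L3MBTL2 (-0.70) and E2F6 (-0.57).

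Several targets of MLX and MLXIP rose with AZD8055. All 6 listed genes had positive mean changes over the lines with AZD8055, 6 libraries a side (median 0.74, against 0.03 for all genes). For HK2 the effect was 0.09 in Hep3B, 0.82 in MHCC97H, with only 7 to 31 reads a library, and -0.75 in Huh7. Against untreated cells alone, 5 of the 6 were higher and 0 were called, where 2.96% of all genes were called. With 6 libraries a side, 3 of the 6 were called higher, where 14.8% of all genes were. These were TXNIP, a brake on glucose uptake (2.24, SE 0.54, limma adjusted p = 0.0162), the factor KLF10 (0.79, SE 0.21, limma adjusted p = 0.0218) and the glycolytic regulator PFKFB3 (0.69, SE 0.12, limma adjusted p = 0.00601). TXNIP had 2443, 5486, 607 and 2076 normalised reads in Hep3B, 27.6, 363, 45.6 and 692 in MHCC97H and 291, 463, 335 and 1641 in Huh7, for untreated cells, AZD8055, compound #57 and the combination. In each line both libraries with AZD8055 lay above their matched libraries without it. The TXNIP call was lost without MHCC97H (1.47, limma adjusted p = 0.0887) and without Huh7 (2.63, limma adjusted p = 0.119).

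With the combination against untreated, 3 of 6 were called higher, where 20.9% of all genes were: TXNIP (2.28, SE 0.76, limma adjusted p = 0.0411), PFKFB3 (0.95, SE 0.17, limma adjusted p = 0.00474) and ARRDC3 (0.74, SE 0.24, limma adjusted p = 0.0381). The TXNIP call was lost without MHCC97H (1.13, limma adjusted p = 0.262) and without Huh7 (2.18, limma adjusted p = 0.174). The promoter of TXNIP (chr1:145996580-145996829, minus strand, RefSeq, GRCh38.p14) is shown because MLX and MLXIP are known to act there through carbohydrate response elements, which hold paired motifs of the form CACGNG. It held 4 matches to CACGNG on either strand (capitals), beginning 163, 88, 77 and 55 bases before the start, where 26.7% of the 35116 windows held at least 1, and the window of its other annotated start held 0.
TXNIP: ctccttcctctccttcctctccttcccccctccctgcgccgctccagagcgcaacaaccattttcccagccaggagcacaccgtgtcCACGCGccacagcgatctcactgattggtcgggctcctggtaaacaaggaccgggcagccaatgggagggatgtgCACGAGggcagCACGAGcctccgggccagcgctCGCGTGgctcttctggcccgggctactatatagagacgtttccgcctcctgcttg

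For each member the genes with the most similar course were found by Pearson correlation of levels centred within each line, over the 12 libraries. For MYC these were DUSP5, an ERK phosphatase (r = 0.970), and the ERK pathway inhibitors SPRY4 (0.967) and SPRED1 (0.960), which also tied for first by Spearman correlation (0.972 each). For MXI1 they were PLEKHA5 (0.976), ZNF394 (0.962) and COPG2 (0.940), for MXD4 they included HMG20B (0.946) and DBP (0.945), and for MNT they were ATXN3 (0.961), MGRN1 (0.957) and SIX5. MAX was followed by TIMM9 (0.960), ZCCHC7 (0.947) and NMD3 (0.932), MGA by NUP214 (0.905), CHD7 (0.897) and BIRC6 (0.882), MLX by FAH (0.982) and SNHG3 (0.977), and MLXIP by PRKCI (0.935), PTPRU (0.931) and ACOT11 (0.917). By Spearman correlation the order differed most for MLX and MLXIP, with FAH at rank 105 and SNHG3 at rank 49 for MLX, and PTPRU at rank 72 and ACOT11 at rank 94 for MLXIP. The Pearson values are among the highest of 11548 genes over 12 libraries that share lines and treatments, and are given as a description.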

How the data were processed

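The deposited values were per-gene log2 values for 12 libraries, which the authors made from reads on hg38. They equal the binary logarithm of reads scaled to a library of 10000000 (normalised reads) plus 1, with 0.001 added, so whole reads were recovered for every value (tolerance 0.01). Per the labels, libraries were polyA-selected and stranded. The aligner, counter and normalization are not given in the sources used here. Of the 11548 genes, none had a mean log2 under 4.65, 18 names had turned into dates and 4 names stood on 2 lines. The libraries held 10667343 to 15968317 reads.

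Values were compared with limma 3.58.1 (R 4.3.3, lmFit and eBayes with trend), with treatment and cell line as terms (6 residual degrees of freedom), and p-values were adjusted over all 11548 genes by Benjamini-Hochberg at 0.05. Drug effects between lines used an additive fit within each line (3 residual degrees of freedom) and limma's F test. Within a line, ratios of reads carry 95% Clopper-Pearson intervals, which cover counting error only. Reads came from 1 library a condition, and the lines are the replicates in the treatment contrasts. In the line contrasts the 4 differently treated libraries of a line took that place, which are not independent cultures of one condition. The replicate number is the line itself, and deviations of the 18 same-line pairs correlated at 0.872 to 0.960. RPKM used the lengths of Ensembl canonical transcripts from GENCODE, which are the MANE Select transcripts for all members but MGA.

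The members and gene lists were chosen with earlier results of these data known. Named genes were the 8 members, up to 4 called genes of each list with the largest changes in a contrast counted, and the 3 genes most like each member, of which some are not reported here. KAT5 and the genes whose drug effect differed between lines were named after their values were seen. Alternatives were voom on recovered reads, centring on medians, 10 added to the linear values, the 75% of genes with the highest mean, only the libraries compared, no block, and leaving out each line. Scripts were tested on simulated data.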

Additional observations from a re-analysis of the deposited data

Results flagged for a closer look

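The effect of AZD8055 differed between the cell lines for 2 of 8 members and 5 of 68 listed genes (7.35%), by limma's F test over 3 lines with p adjusted over all genes, where 5.03% of all genes passed. Among the members, MXD4 gave a limma adjusted p of 0.0175 and MXI1 of 0.0487, and both were higher with AZD8055 chiefly in MHCC97H (1.22 and 1.52). TFDP2, a partner of E2F factors, had effects of 0.05 for Hep3B, 1.46 for MHCC97H and 0.31 for Huh7 (limma adjusted p = 0.0357). TXNIP had 1.47, 3.78 and 1.48 in the same order (limma adjusted p = 0.0373). ODC1, the polyamine enzyme and MYC target, had 0.12, -1.27 and 0.34 (limma adjusted p = 0.0155). KLF10 had 1.0, -0.01 and 1.37 (limma adjusted p = 0.0341), and the hexokinase HK2 had 0.09, 0.82 and -0.75 (limma adjusted p = 0.0355). HK2 had 7 to 31 reads per library in MHCC97H, too few to compare.

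The effect of compound #57 differed between the lines for 4 of 68 listed genes (5.88%), where 4.9% of all genes passed, and for no member. The arrestin-domain gene ARRDC4 had effects of -1.73, 0.94 and 1.11 for Hep3B, MHCC97H and Huh7 (limma adjusted p = 0.00401). HK2 had -1.88, 1.21 and -0.46 (limma adjusted p = 0.00401), the MHCC97H value resting on the same few reads, and TXNIP had -1.70, 0.82 and 1.01 (limma adjusted p = 0.0240). The cell cycle inhibitor CDKN1A had 1.78, 0.53 and -0.71 (limma adjusted p = 0.0480). Line and exposure time cannot be told apart in any of these.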

How the results depend on the processing

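The direction of 30 results of the members, from treatment and line contrasts, held in all 265 recomputations. Part of these could not have reversed it. With each treatment present once in each line, dropping the replicate block or fitting only the libraries compared leaves a log2-fold change as it was. Keeping only the genes with the highest mean does not alter it either. Such refits bear on the calls and not on direction. Only results with an unadjusted limma p under 0.05 were followed, so weaker changes are not covered. Of the 30, 7 were from MHCC97H against Huh7, 5 from MHCC97H against Hep3B and 4 from Hep3B against Huh7. The count of members called changed more. For AZD8055 with and without compound #57, 1 member was called, with 0 without the replicate block and 0 to 2 when a line was left out. For the combination against untreated, 1 was called, with 0 without the replicate block, 0 when only the libraries compared were fitted and 0 to 2 when a line was left out. For compound #57 with and without AZD8055, 1 was called, with 0 without the replicate block and 0 to 1 when a line was left out. For compound #57 against untreated, 0 were called by limma, and 0 to 1 when a line was left out. Here the block is the cell line, since the lines are the pairs, and fits without the block called 0 genes of all 11548 in the first 3 contrasts. Without Huh7 the calls over all genes were 1 (AZD8055), 0 (compound #57) and 11 (combination against untreated). Leaving out Hep3B or MHCC97H, with as many libraries fitted, left 1844 and 1979 calls with AZD8055 and 1797 and 3778 with the combination, while for compound #57 they were 2 and 2359. The cause was not tested. Without MHCC97H, chosen after seeing the data, the correlations of MXI1, MXD4 and MNT turned from 0.65 to -0.36 (MXI1 and MXD4), 0.71 to -0.023 (MXI1 and MNT) and 0.65 to -0.32 (MXD4 and MNT). With 1 library a condition, no spread between cultures of one line could be measured.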
